A study of Mus musculus with 16 samples.

Results

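Cx3cr1-positive CD8+ T cells of accepted mouse kidney allografts are described here. A cell counted as Cx3cr1 positive when it held at least 1 unique molecular identifier (UMI, which marks 1 captured mRNA molecule) of Cx3cr1, at least 1 UMI of Cd8a or Cd8b1, and no UMI of the myeloid genes Lyz2, C1qa, and Csf1r. Of the 29334 cells that met the CD8 and myeloid conditions in grafts at 1 and 3 weeks, 845 were Cx3cr1 positive. There were 399 of 11430 cells at 1 week (127, 104, and 168 cells in 3 libraries) and 446 of 17904 cells at 3 weeks (91, 99, 85, 77, and 94 cells in 5 libraries). The remaining CD8 cells of the same library, which held no Cx3cr1 UMI, served as Cx3cr1-negative cells. Levels of the genes that chose the cells are descriptions and carry no test between positive and negative cells. How often cells met the rule was compared between weeks and between tissues. Genes that the rule did not use were tested between positive and negative cells.

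CX3CR1 is the receptor for the membrane-bound chemokine fractalkine. In CD8+ T cells it is best known as a marker of differentiated effector and effector memory cells that circulate, patrol blood vessels, and carry KLRG1, the transcription factors ZEB2 and T-bet, the egress receptor S1PR5, and granzymes. Tissue-resident memory CD8+ T cells, in contrast, stay in the tissue, carry the integrins CD103 (Itgae) and CD49a (Itga1), and turn down the egress receptor S1PR1 and its activator KLF2. Monocytes and macrophages carry much Cx3cr1 mRNA, which is why cells with myeloid UMIs were left out.

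DBA/2J kidneys were transplanted into WT C57BL/6J (B6) recipients, which accept them spontaneously, and viable CD45+ cells were sorted from the graft and the recipient's spleen at 1 week and 3 weeks for droplet scRNA-seq. The recipients were male, their ages are not given in the sources used here, and the grafts hold recipient immune cells next to any donor cells that remained. Rejecting grafts in the reverse strain pair (B6 kidney in a DBA/2J recipient, 1 week) and spleens of naive mice were used for reference. The authors called the CD8+ T cells from clusters and deposited raw UMI counts as 1 matrix per tissue and time, in which a tag in each barcode tells the libraries apart. The 3 tags at 1 week and 5 tags at 3 weeks equal the numbers of mice in the study, and a tag was read as 1 mouse on that basis.

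The graft libraries held 13384744 to 25960721 UMIs at 1 week and 9756240 to 11205319 UMIs at 3 weeks. Most positive cells sat just inside the rule: 337 of 399 (84.5%) at 1 week and 382 of 446 (85.7%) at 3 weeks held exactly 1 Cx3cr1 UMI, and the highest counts were 14 and 10 UMIs. Positive cells were deeper than negative ones, with a median of 3298 against 2681 UMIs at 1 week and 2373 against 2182 UMIs at 3 weeks. For this reason each comparison was repeated against negative cells of the same library and depth (3 for each positive cell, medians of 3319 and 2385 UMIs), which is called the depth-matched comparison below. A cell without a captured Cx3cr1 UMI may still have expressed the gene, so the negative cells are those in which it was not detected. In each week, 2 positive cells had a barcode that occurred in more than 1 library.

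The share of Cx3cr1-positive cells among CD8 cells was lower at 3 weeks than at 1 week by a difference that did not pass the test. Without any correction for depth it was 3.59, 4.39, and 3.04% in the 3 libraries at 1 week and 3.14, 3.01, 2.01, 2.18, and 2.38% in the 5 libraries at 3 weeks, so that the times overlapped. After every cell was thinned to 1000 UMIs, with no cell left out in the graft, it was 1.46% ± 0.273 (SD, n = 3) at 1 week and 1.08% ± 0.218 (SD, n = 5) at 3 weeks. This difference of -0.382 percentage points had an exact two-sided permutation p of 0.107, where 0.0357 is the smallest that the design allows. Without thinning and with the CD8 cells that held a myeloid UMI kept, the difference was -1.24 percentage points, the weeks did not overlap, and the exact permutation p was 0.0357. The lack of overlap there rested on 3.0497% in library 3 at 1 week against 3.0492% in library 2 at 3 weeks. The thinned share in the recipient spleen was 0.745% ± 0.365 (SD, n = 3) at 1 week and 0.885% ± 0.608 (SD, n = 5) at 3 weeks. The graft was above the spleen in all libraries at 1 week (exact permutation p = 0.1, the smallest possible with 3 against 3), and at 3 weeks the ranges overlapped (exact permutation p = 0.524). The order at 3 weeks depended on the count taken: for cells with at least 2 Cx3cr1 UMIs, without thinning, the graft was 0.316 percentage points below the spleen (exact permutation p = 0.19), and as a percentage of all cells of the CD8 matrices, without thinning, it was 1.38 percentage points above it (p = 0.00794, the smallest possible).

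In rejecting grafts the thinned share was 3.05% (78 positive of 1247 cells before thinning, 2 libraries, not tested), and in naive spleen it was 0.588% (38 positive of 4423 cells before thinning). Among B cells of naive spleen, which should lack the gene, 20 of 26568 cells (0.0753%) held a Cx3cr1 UMI at a median of 2734 UMIs per cell, against median depths of 1951 to 3617 UMIs in the graft libraries. That value is not the background of the graft, which was not measured for Cx3cr1: a UMI of Lyz2, C1qa, or Csf1r was found in 18.1% and 16.7% of CD8 cells of the graft at 1 and 3 weeks and in 1.71% of CD8 cells of naive spleen. CD8 cells of the graft that did hold a myeloid UMI, and were left out, carried Cx3cr1 at a share close to that of the cells kept, 3.87% against 3.49% at 1 week and 2.62% against 2.49% at 3 weeks.

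**Figure D1:**
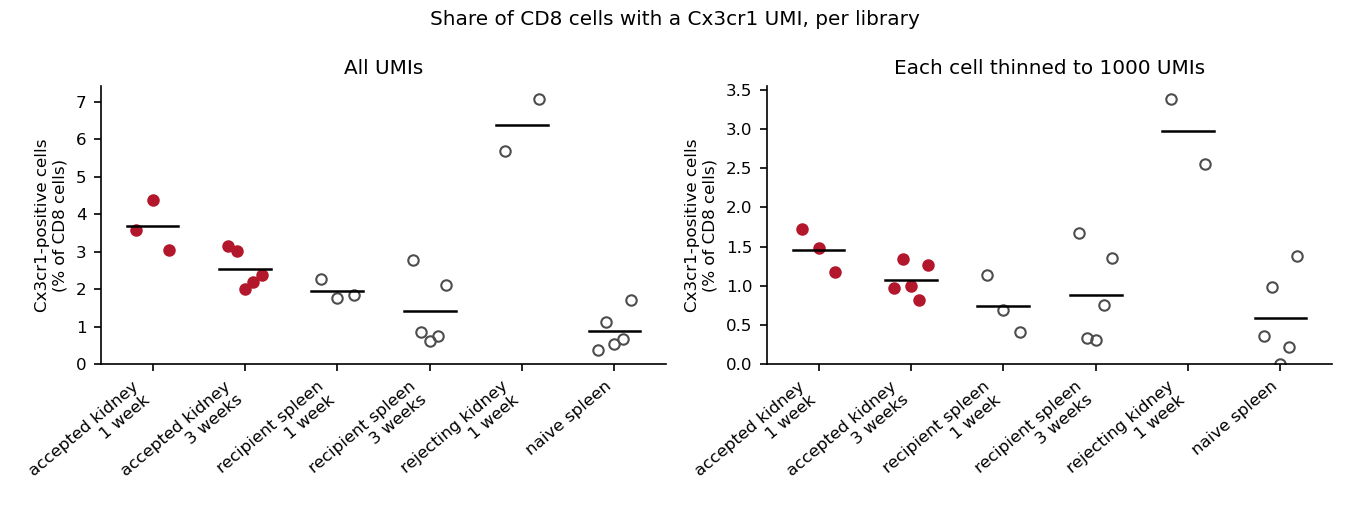
Cx3cr1-positive cells in percent of CD8 cells (y axis) for each library (points) of 6 groups (x axis), with all UMIs on the left and after thinning each cell to 1000 UMIs on the right; filled points are accepted grafts and lines are group means. The graft libraries sit between 2.01 and 4.39% with all UMIs and between 0.820 and 1.72% after thinning, below both libraries of rejecting grafts.

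The usual partners of Cx3cr1 were at low counts in the positive cells of the graft, with some above the negative cells. Klrg1, an inhibitory lectin receptor of terminal effector cells, was detected at 17.6, 7.5, and 7.34 CPM (UMIs of the gene scaled to the total UMIs of its sum of cells) in positive cells and 4.66, 1.78, and 3.21 CPM in negative cells at 1 week (log2 fold change 1.69 ± 0.50 SE, adjusted p = 0.043 in edgeR's quasi-likelihood test). This call was lost without any 1 of the 3 libraries at 1 week, or of libraries 1, 2, and 5 at 3 weeks. It was also absent with TMM factors, in DESeq2, and without the cells that held a Mki67 or Top2a UMI. At 3 weeks there was 1 Klrg1 UMI in all 446 positive cells, in library 1. Zeb2, a transcription factor of terminal effector cells, was at 55.1, 26.3, and 32.3 CPM in positive and 32.4, 20.0, and 20.4 CPM in negative cells at 1 week, above in each of the 3 libraries without passing the test (0.63 ± 0.22, adjusted p = 0.15). Zeb2 was higher in positive cells at 3 weeks (81.5, 63.8, 46.8, 38.4, and 35.2 CPM against 29.6 to 36.2 CPM, log2 fold change 0.76 ± 0.20, adjusted p = 0.022), in 4 of 5 libraries. That call did not hold in the depth-matched comparison (0.61, adjusted p = 0.30), in DESeq2 (adjusted p = 0.12), after thinning (0.15, adjusted p = 0.997), or without library 1 (0.48, adjusted p = 0.68). S1pr5, an egress receptor of such effector cells, had 2 UMIs in the positive cells at 1 week and 0 at 3 weeks, and Tbx21, which encodes T-bet, had 61.6 ± 2.14 against 50.1 ± 5.63 CPM at 1 week and 45.2 ± 18.5 against 66.7 ± 2.35 CPM at 3 weeks, without passing the test in either week (adjusted p = 0.52 and 0.19). With TMM factors Tbx21 was called lower at 3 weeks (-0.62, adjusted p = 0.047). Of 11 effector markers tested, 4 were higher at 1 week (Gzma, Itgb1, Klrg1, and Rap1b) and 0 lower, or 1 higher (Gzma) with TMM factors. At 3 weeks 3 were higher (Itgb1, Ly6c2, and Zeb2) and 1 lower (Gzma). Over all 10824 genes tested, 1.12% were higher and 0.499% lower at 1 week, and 0.628% and 0.379% at 3 weeks. The Gzma calls of both weeks were lost in a robust fit that is described below. The list medians were 0.49 and 0.12, against 0.04 and 0.01 over all genes tested. The label of effector cells was not borne out by Klrg1 at 3 weeks. S1pr5 had too few UMIs in the graft to compare positive with negative cells. Its 0 UMIs in positive cells at 3 weeks had a counting interval of up to 2.94 CPM, against 146 CPM in positive cells of the recipient spleen. As other markers of the list were higher, no verdict on the label is given, and the cells are called Cx3cr1-positive CD8 cells here.

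In recipient spleens the same rule found cells with higher levels of several of these markers, most clearly at 3 weeks. Markers of other cell types were not summed in the spleen. In the spleen at 3 weeks, 38 positive cells of 5 libraries had 903 CPM of Zeb2 against 7.67 CPM in negative cells, 91.2 against 1.01 CPM of Klrg1, 146 against 1.60 CPM of S1pr5, and 2062 against 15.2 CPM of Gzma, which encodes a granzyme, when the libraries were summed. In the spleen at 1 week, Gzma stood at 906, 2269, and 3698 CPM in positive cells and at no more than 156 CPM in negative cells. Zeb2 was at 33.4, 40.3, and 244 CPM in those positive cells, against 26.3 to 55.1 CPM in positive cells of the graft. The difference between graft and spleen was tested gene by gene, as the log2 change in the graft minus that in the spleen. This comparison was added after the values were seen. At 3 weeks it was -6.14 for Klrg1 (adjusted p = 0.00020), -6.13 for Zeb2 (5.6e-05), -4.03 for Tbx21 (4.3e-07), -8.86 for Gzma (5.8e-05), and -2.55 for Id2 (7.6e-09), a transcription factor of effector cells. Klrg1 was higher in positive cells in 3 of 5 spleen libraries, and its graft value rests on 1 UMI. Exact permutation of the library ratios gave an unadjusted p of 0.13 for Klrg1, 0.048 for Zeb2, Tbx21, and Id2, and 0.0079 for Gzma. The positive cells themselves held Id2 at 620 ± 114 CPM in the graft and 612 ± 389 CPM in the spleen, and its difference came with the negative cells, at 573 to 712 CPM in the graft and 110 to 129 CPM in the spleen. Tbx21 was likewise at 63.1 to 69.5 CPM in negative cells of the graft and at 6.35 to 13.8 CPM in those of the spleen, and in positive cells at 45.2 ± 18.5 and 81.2 ± 65.7 CPM. Of the 9691 genes tested at 3 weeks, 292 (3.01%) passed with a smaller change in the graft and 124 (1.28%) with a larger one, 4.29% in all. S1pr5 did not pass in that fit (-8.17, adjusted p = 0.17), in which the graft had no UMI at all in positive cells and the spleen 16 in the 5 libraries together. Exact permutation of its library ratios gave an unadjusted p of 0.0079. Positive cells were at 71.0 to 312 CPM of S1pr5 in the spleen libraries and at 0 CPM in the graft libraries.

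The spleen libraries were few in cells and spread widely. At 3 weeks Zeb2 in positive cells ran from 0 to 2682 CPM over the 5 spleen libraries with a median of 811 CPM, whereas the 5 graft libraries ran from 35.2 to 81.5 CPM. At 1 week the difference between graft and spleen passed for Gzma (-3.61, adjusted p = 0.0013), Tbx21 (-1.58, 0.0014), Prdm1 (-2.46, 0.00097), which encodes BLIMP-1, Id2 (-1.67, 3.6e-07), Itgb1 (-1.77, 0.00085), and Rap1b (-0.62, 0.0022), and not for Klrg1 (-1.45, 0.22) or Zeb2 (-2.32, 0.11). In positive cells at 1 week the graft was not below the spleen for all of these, with Prdm1 at 50.3 ± 11.2 and 23.5 ± 17.2 CPM, Itgb1 at 965 ± 150 and 911 ± 295 CPM, and Tbx21 at 61.6 ± 2.14 and 58.0 ± 34.4 CPM. Negative cells were lower in the spleen, for Itgb1 at 162 to 249 CPM against 679 to 908 CPM in the graft and for Prdm1 at 2.97 to 3.79 against 34.1 to 36.2 CPM. The background at 1 week was 747 of 9691 genes (7.71%) with a smaller change in the graft and 169 (1.74%) with a larger one, 9.45% in all. For Ly6c2, a surface protein of effector and memory cells, this change did not differ between graft and spleen beyond its spread in either week (-0.29, adjusted p = 0.76, and 0.27, adjusted p = 0.87). Its level was lower in the graft at 3 weeks, at 131 ± 44.9 against 838 ± 517 CPM in positive cells. Negative cells were at 52.9 to 66.6 CPM in the graft and 381 to 466 CPM in the spleen.

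**Figure D2:**
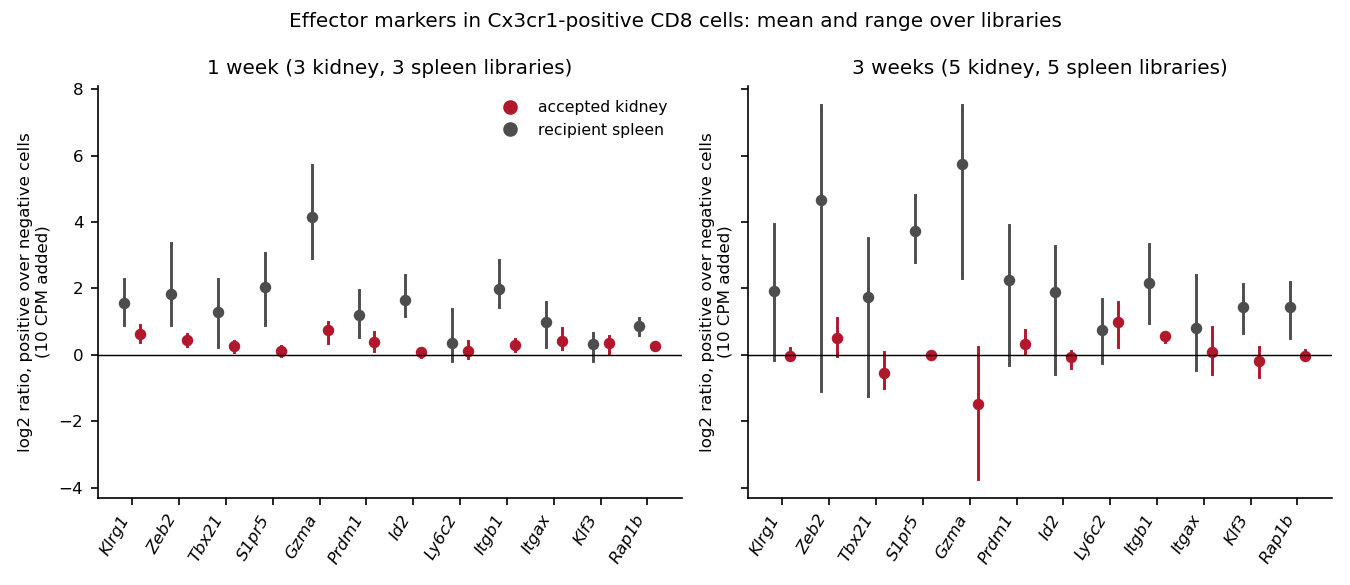
Log2 ratio of CPM in Cx3cr1-positive over Cx3cr1-negative CD8 cells, with 10 CPM added to both (y axis), for 12 effector markers (x axis) at 1 week (left) and 3 weeks (right); points are means and lines run from the lowest to the highest library. At 3 weeks the Gzma ratio is 2.32 or more in every spleen library and 0.25 or less in every graft library, although the lowest spleen value rests on 1 UMI in 4 cells, and the ratios of Ly6c2 overlap.

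Between positive and negative cells of the graft, UMIs summed per library were compared within libraries. At 1 week 121 genes were higher (1.12% of 10824 tested) and 54 lower (0.499%), 1.62% in all. At 3 weeks 68 were higher (0.628%) and 41 lower (0.379%), 1.01% in all. The balance of the directions depended on the scaling: with TMM factors, which moved the median log2 fold change of all genes at 1 week from 0.04 to -0.10, there were 62 higher and 254 lower genes at 1 week and 55 higher and 129 lower at 3 weeks, and DESeq2 gave 31 higher and 106 lower at 1 week and 61 higher and 17 lower at 3 weeks. Genes called below kept their direction under both scalings. The test used here takes the spread between libraries from a trend shared by all genes. A gene that varies unusually between libraries therefore gets too small a p and SE. A robust fit also shares the spread between genes, but holds genes that vary unusually less closely to the trend. Where a call was lost in the robust fit, that adjusted p is given as well. Of the 175 and 109 calls, 167 and 94 were kept in it.

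**Figure D3:**
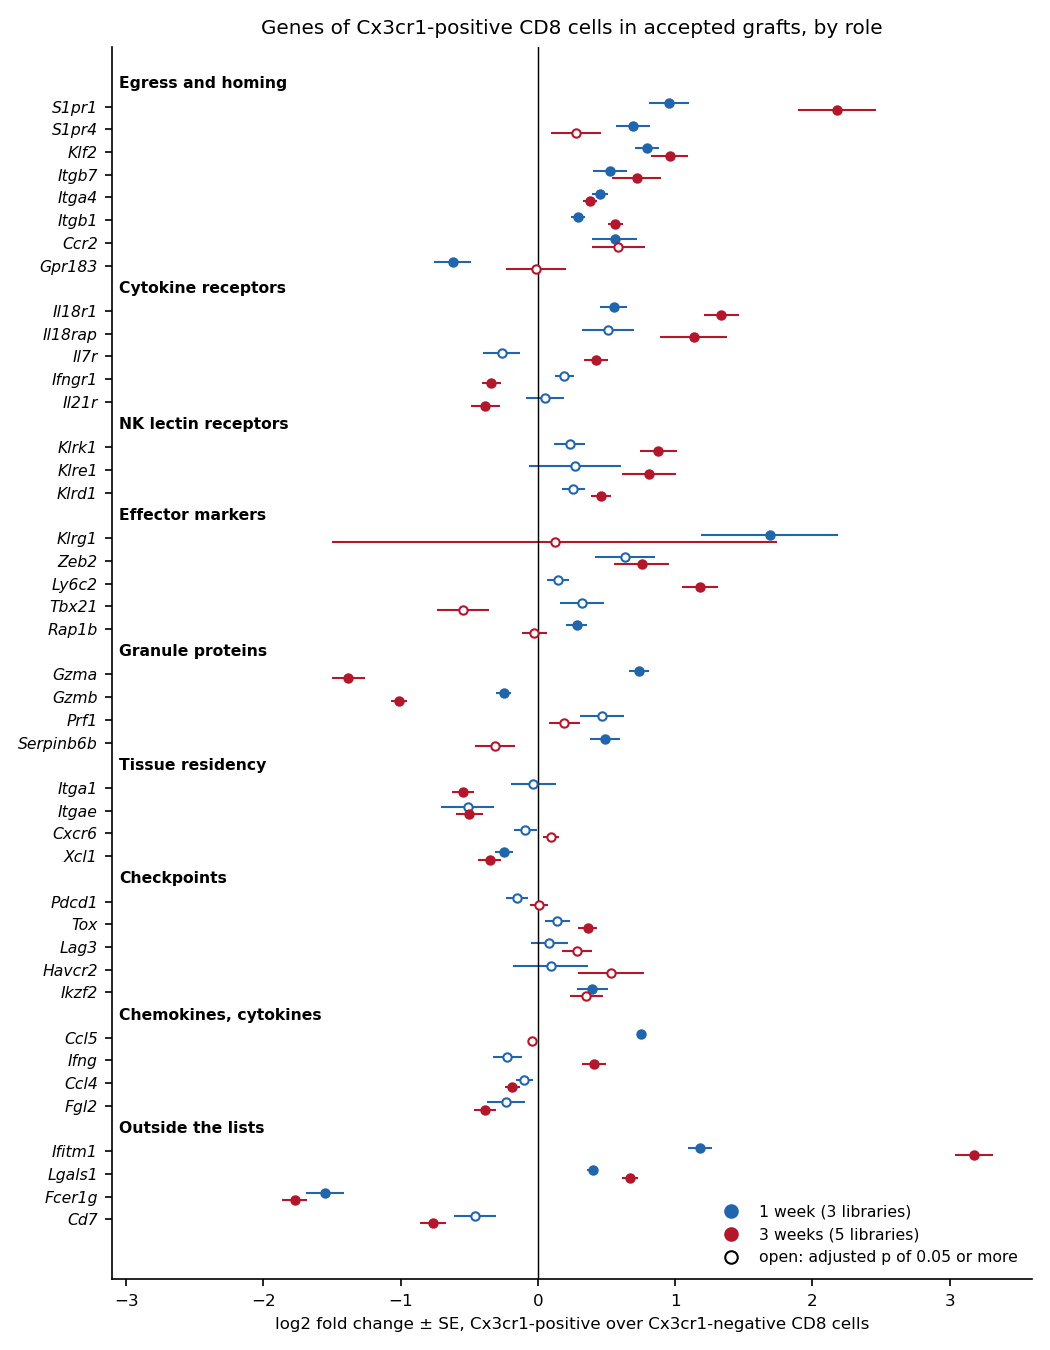
Log2 fold change (x axis, bars are SE) of Cx3cr1-positive over Cx3cr1-negative CD8 cells at 1 week (blue, n = 3 libraries) and 3 weeks (red, n = 5 libraries) for genes grouped by role (y axis); filled points passed an adjusted p of 0.05. S1pr1 is at 0.96 and 2.18, Il18r1 at 0.55 and 1.34, and Fcer1g at -1.55 and -1.77.

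Genes of egress and homing were the list with the most calls at 1 week and over both weeks together, while at 3 weeks the 15 cytokine receptors tested also had 5 calls. Of 16 tested, 7 were higher and 2 lower in positive cells at 1 week, and 5 were higher at 3 weeks. With TMM factors the calls at 1 week were 4 higher and 3 lower. The median log2 fold change of the list was 0.22 and 0.23, against 0.04 and 0.01 over all genes tested. S1pr1, the receptor by which lymphocytes follow sphingosine 1-phosphate out of tissue, stood at 36.5, 55.8, 28.1, 33.6, and 26.4 CPM in positive cells at 3 weeks and at 9.08, 9.04, 7.74, 7.23, and 6.33 CPM in negative cells. All positive values lay above all negative ones (4.54-fold, log2 fold change 2.18 ± 0.28, adjusted p = 1.6e-11, depth-matched 1.71). At 1 week S1pr1 was at 83.7, 148, and 82.2 CPM against 62.8, 53.5, and 46.5 CPM (log2 fold change 0.96 ± 0.14, adjusted p = 2.1e-08), again without overlap. Without library 2 the 1-week value was 0.64 with an adjusted p of 0.085. After thinning S1pr1 was called in neither week, and in DESeq2 it was called at 3 weeks only.

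Klf2, the transcription factor that turns on S1pr1, was higher in both weeks. It stood at 311, 343, and 241 CPM in positive cells against 181, 184, and 148 CPM in negative cells at 1 week (log2 fold change 0.79 ± 0.09, adjusted p = 3.8e-17). At 3 weeks it was at 202, 108, 103, 139, and 57.1 CPM against 74.1, 69.8, 57.1, 63.8, and 59.4 CPM (0.96 ± 0.13, adjusted p = 2.3e-10), higher in 4 of 5 libraries and with overlap of the groups through library 5. S1pr4, another receptor for sphingosine 1-phosphate, was higher at 1 week (124 ± 10.7 against 74.9 ± 10.8 CPM, log2 fold change 0.69) and did not pass at 3 weeks (0.28, adjusted p = 0.76).

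Integrins of circulating and homing cells went the same way. Itgb1, the integrin beta 1 chain, was at 901 ± 122 against 608 ± 47.5 CPM at 3 weeks (SD, n = 5), without overlap (log2 fold change 0.56 ± 0.05, adjusted p = 1.5e-24), and at 965 ± 150 against 790 ± 115 CPM at 1 week (0.29 ± 0.05, adjusted p = 3.0e-06). The 1-week call of Itgb1 was lost without library 2 (0.19, adjusted p = 0.23) and with TMM factors (0.14, adjusted p = 0.17). In the joint fit with the spleen, the change of Itgb1 within the graft passed in neither week (adjusted p = 0.79 and 0.19). Its partner Itga4, the alpha 4 chain, rose in all 8 libraries, with log2 fold changes of 0.45 at 1 week and 0.38 at 3 weeks. Itgb7, the gut-homing partner of alpha 4, was higher by 0.53 and 0.72, although its 1-week call was lost in the depth-matched comparison (adjusted p = 0.051) and with TMM factors. Gpr183, an oxysterol receptor, was lower at 1 week (74.7 ± 1.84 against 116 ± 7.74 CPM, log2 fold change -0.62, depth-matched adjusted p = 0.12).

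The interleukin 18 receptor was the clearest of the cytokine receptors, of which 1 of 15 tested was higher at 1 week and 3 were higher and 2 lower at 3 weeks. Il18r1, its ligand-binding chain, was at 121, 159, 169, 178, and 158 CPM in positive cells at 3 weeks and at 62.5, 63.9, 63.4, 52.9, and 60.3 CPM in negative cells. The groups did not overlap (2.53-fold, log2 fold change 1.34 ± 0.13, adjusted p = 1.1e-22). At 1 week it was at 161, 201, and 201 CPM against 116, 102, and 164 CPM (0.55 ± 0.10, adjusted p = 1.5e-05), and without library 2 this was 0.35 with an adjusted p of 0.17. Il18rap, the signaling chain, was higher at 3 weeks (39.9 ± 15.7 against 18.3 ± 0.700 CPM, log2 fold change 1.14, adjusted p = 0.00088; without library 5 it was 0.95, adjusted p = 0.081). Il7r, the interleukin 7 receptor of long-lived T cells, was higher at 3 weeks by 0.42 (285 ± 76.9 against 212 ± 62.3 CPM, depth-matched adjusted p = 0.17), and Ifngr1, a chain of the interferon-gamma receptor, was lower (397 ± 126 against 502 ± 126 CPM, -0.34, adjusted p = 0.00028), in 5 of 5 libraries.

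Receptors shared with NK cells, and Ly6c2, were higher in positive cells at 3 weeks. Of 12 NK lectin receptors tested, 3 were higher at 3 weeks and 1, Klrg1, at 1 week. Klrk1, which encodes the activating receptor NKG2D, was at 188, 75.7, 103, 125, and 110 CPM against 82.6, 54.4, 69.4, 60.1, and 67.9 CPM (log2 fold change 0.88 ± 0.13, adjusted p = 2.7e-08). Klrd1, which encodes CD94, was higher by 0.46 (433 ± 87.7 against 315 ± 31.0 CPM) and Klre1, a receptor of the same gene cluster, by 0.81. Ly6c2 was at 160, 108, 65.6, 178, and 145 CPM against 66.6, 62.0, 54.4, 52.9, and 54.2 CPM at 3 weeks (log2 fold change 1.18 ± 0.13, adjusted p = 2.7e-16), higher in 5 of 5 libraries with library 3 the lowest. At 1 week it was 326 ± 85.7 against 296 ± 60.1 CPM (0.14, adjusted p = 0.61), although the depth-matched value of 0.36 passed (adjusted p = 0.048). In the joint fit with the spleen, the change of Ly6c2 within the graft passed in neither week (adjusted p = 0.95 and 0.23).

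In both weeks the gene with the largest log2 fold change among those named by rank was Ifitm1, a small interferon-induced membrane protein. It was at 502, 349, and 244 CPM in positive cells and 125, 198, and 147 CPM in negative cells at 1 week, and at 177, 243, 211, 197, and 92.3 CPM against 12.4, 29.7, 21.1, 15.8, and 25.1 CPM at 3 weeks. Positive cells were higher in all 8 libraries and the groups overlapped in neither week. The log2 fold change was 1.18 ± 0.09 at 1 week (adjusted p = 7.1e-40) and 3.18 ± 0.14 at 3 weeks (adjusted p = 5.6e-114). The ratio varied so much between libraries that both calls were lost in the robust fit (adjusted p = 0.18 and 0.064). The log2 ratios of the libraries, with 10 CPM added, had an SD of 0.69 and 0.62. Of the 13 interferon-stimulated genes tested in the list of that name, the single call over both weeks was Ifi27l2a (higher at 3 weeks, 0.34, depth-matched adjusted p = 0.13). Lgals1, which encodes galectin 1, was higher in all 8 libraries, at 2169 ± 343 against 1651 ± 357 CPM at 1 week (log2 fold change 0.40, adjusted p = 6.7e-19) and 615 ± 102 against 389 ± 71.6 CPM at 3 weeks (0.67, adjusted p = 3.1e-26).

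Fcer1g, the signaling chain shared by Fc receptors and NK cell receptors, was the gene most clearly lower in positive cells. At 1 week it was at 66.1, 48.8, and 30.8 CPM against 186, 161, and 81.6 CPM (2.93-fold lower, log2 fold change -1.55 ± 0.14, adjusted p = 1.8e-24). At 3 weeks it was at 75.9, 147, 178, 221, and 136 CPM against 316, 443, 649, 631, and 517 CPM (3.42-fold lower, -1.77 ± 0.09, adjusted p = 1.5e-77), lower in 8 of 8 libraries and without overlap in either week. Cd7, an immunoglobulin-family receptor of T and NK cells, was lower at 3 weeks (177 ± 11.2 against 307 ± 60.5 CPM, -0.77, adjusted p = 8.6e-13).

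Granzymes are the proteases that cytotoxic granules deliver into target cells. Gzmb, which encodes granzyme B, was lower in positive cells in 8 of 8 libraries: 683, 585, and 665 CPM against 734, 869, and 709 CPM at 1 week, and 343, 542, 534, 418, and 343 CPM against 686, 907, 1012, 852, and 947 CPM at 3 weeks. The groups overlapped in neither week. The log2 fold change was -1.01 ± 0.06 at 3 weeks (adjusted p = 3.9e-59) and -0.25 ± 0.05 at 1 week (adjusted p = 0.00075). The 1-week call was lost in the robust fit (adjusted p = 0.18) and without library 2 (-0.10, adjusted p = 0.85). After thinning, Gzmb was detected in 33.5% of positive and 32.3% of negative cells at 1 week, higher in all 3 libraries, and in 18.2% and 35.9% at 3 weeks, lower in all 5 libraries. Gzma turned direction between the weeks, at 529, 360, and 409 CPM against 261, 192, and 315 CPM at 1 week (0.74) and at 39.3, 187, 28.1, 139, and 70.3 CPM against 129, 156, 498, 219, and 268 CPM at 3 weeks (-1.38), where it was lower in 4 of 5 libraries. Neither call of Gzma held in the robust fit (adjusted p = 0.45 and 0.48). Prf1, which encodes perforin, passed in neither week (63.9 ± 16.5 against 46.4 ± 0.540 CPM, adjusted p = 0.13, and 152 ± 29.8 against 132 ± 7.55 CPM, adjusted p = 0.70). Of 15 granule genes tested, 2 were higher and 1 lower at 1 week, and 2 were lower at 3 weeks.

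**Figure D4:**
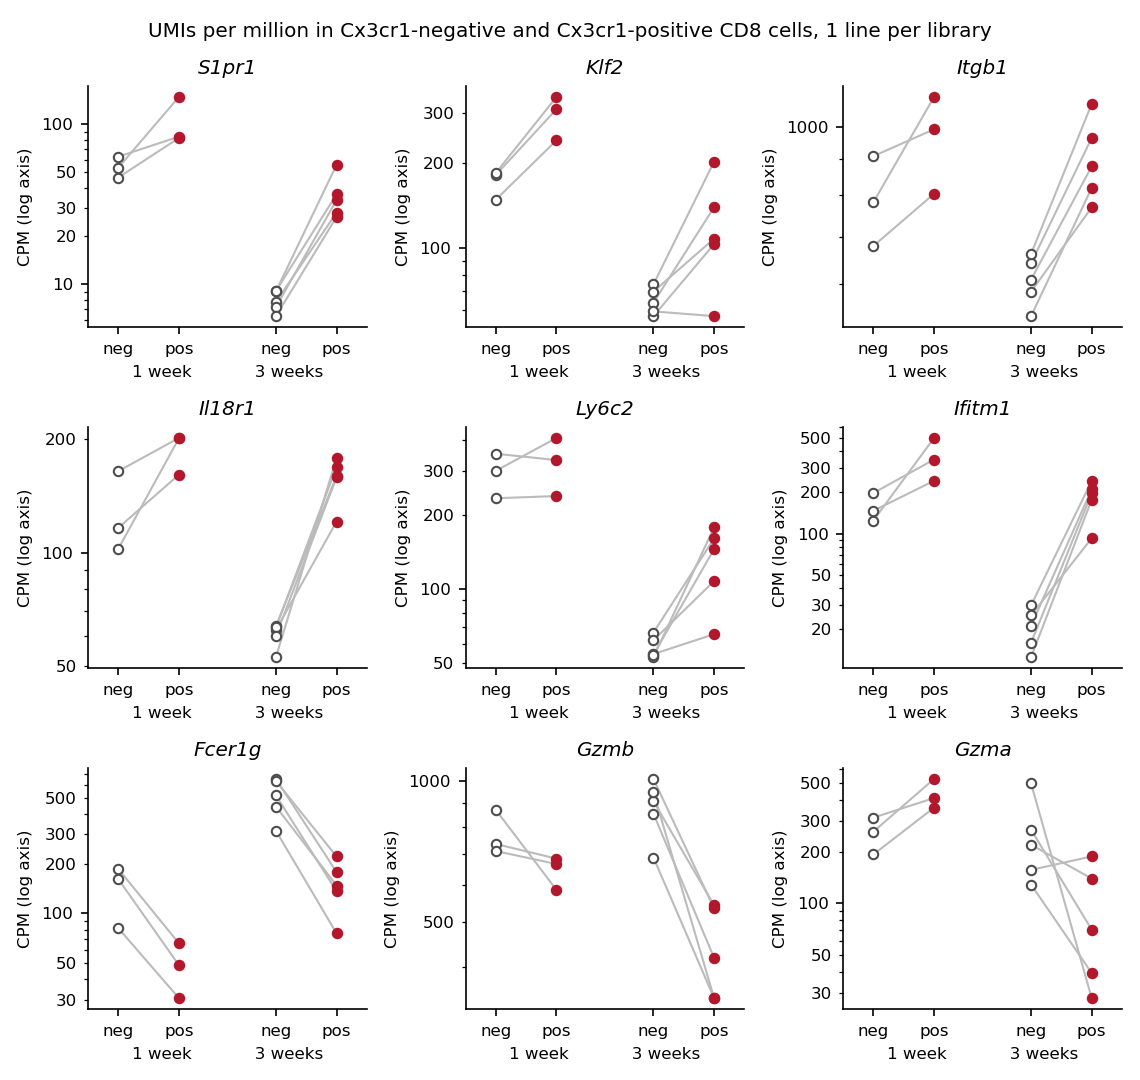
CPM (y axes, log scale) of 9 genes in Cx3cr1-negative (open) and Cx3cr1-positive (filled) CD8 cells at 1 and 3 weeks (x axis), with a line for each library. S1pr1, Ifitm1, Fcer1g, and Gzmb do not overlap between positive and negative cells in either week, while Gzma rises along all 3 lines at 1 week and falls along 4 of 5 at 3 weeks.

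Of 12 tissue residency genes tested, 1 was lower at 1 week and 3 were lower at 3 weeks. Itga1, which encodes the collagen-binding integrin chain CD49a, was at 295, 247, 290, 303, and 299 CPM against 420, 404, 455, 401, and 411 CPM at 3 weeks, without overlap (log2 fold change -0.54 ± 0.08, adjusted p = 4.1e-09). Itgae, which encodes CD103, was at 180, 167, 225, 154, and 149 CPM against 258, 259, 258, 232, and 226 CPM (-0.50 ± 0.10, adjusted p = 0.00014), also without overlap, but its depth-matched value of -0.38 did not pass (adjusted p = 0.094). Xcl1, a chemokine of resident and dendritic cell-attracting T cells, was lower in both weeks (-0.25 and -0.35), and both calls were lost in the robust fit (adjusted p = 0.79 and 0.82). Cxcr6, a chemokine receptor of resident cells, was at 710 ± 52.4 against 666 ± 48.5 CPM at 3 weeks and did not pass (0.09, adjusted p = 0.72). At 3 weeks the mean levels of Itga1, Itgae, and Cxcr6 in the positive cells themselves were above those at 1 week (48.8 ± 7.38, 32.5 ± 12.3, and 209 ± 56.6 CPM at 1 week).

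Of 14 checkpoint receptors and exhaustion factors tested, 1 was higher in each week. Pdcd1, which encodes PD-1, was at 242 ± 41.4 against 270 ± 23.5 CPM at 1 week and 515 ± 126 against 512 ± 93.2 CPM at 3 weeks (log2 fold changes of -0.15 ± 0.08 and 0.01 ± 0.06, adjusted p = 0.58 and 0.99). Lag3 (0.08 ± 0.13 and 0.28 ± 0.11) and Havcr2, which encodes TIM-3 (0.09 ± 0.27 and 0.53 ± 0.24), did not pass either. Tox, a transcription factor of exhausted T cells, was higher at 3 weeks (421 ± 69.5 against 330 ± 41.1 CPM, 0.36 ± 0.07, adjusted p = 0.00019). The 1-week call was Ikzf2, which encodes Helios (0.40, adjusted p = 0.036), and it was lost in the depth-matched comparison (adjusted p = 0.43) and without any 1 of the 3 libraries. With TMM factors it was also lost, and the 1-week calls were then Pdcd1 (-0.30, adjusted p = 0.014) and Cd244a, both lower.

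Ccl5, an abundant chemokine of effector CD8+ T cells, was higher in positive cells at 1 week, at 9015, 12068, and 2499 CPM against 5095, 7146, and 1591 CPM, in 3 of 3 libraries (1.68-fold, log2 fold change 0.75 ± 0.03, adjusted p = 5.7e-135). The libraries differed more from each other than positive from negative cells did. At 3 weeks it was at 12267 ± 1171 against 12656 ± 852 CPM (-0.05, adjusted p = 0.57). Ifng was higher at 3 weeks (252 ± 45.0 against 192 ± 14.3 CPM, 0.41, adjusted p = 0.0014; without library 1 it was 0.33, adjusted p = 0.20), and Fgl2, a secreted or membrane-bound suppressive protein, was lower (300 ± 40.5 against 392 ± 38.1 CPM, -0.39, adjusted p = 0.00028). Of 11 chemokines and cytokines tested, 1 was higher and 1 lower at 1 week, and 1 was higher and 3 lower at 3 weeks. With TMM factors 1 was higher (Ccl5) and 4 were lower (Ccl3, Ccl4, Ifng, and Xcl1) at 1 week, and Ccl5 was called lower at 3 weeks (-0.13, adjusted p = 0.0045). Of 13 genes of CX3CR1 signaling, the single call over both weeks was Dock2, a guanine nucleotide exchange factor of lymphocyte migration (higher at 1 week, 0.29, adjusted p = 0.027). This call was lost with TMM factors, in DESeq2, in the depth-matched comparison, after thinning, and without any 1 of the 3 libraries at 1 week (adjusted p from 0.059 to 0.56 over these settings).

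Among the other genes named by the fixed rule, Rasa3, an inhibitor of Ras and Rap signaling, was higher at 1 week (102 ± 7.0 against 57.5 ± 4.58 CPM, 0.85, adjusted p = 2.4e-07) and was at 47.5 ± 5.55 against 31.8 ± 1.36 CPM at 3 weeks (adjusted p = 0.29). Cenpf, a kinetochore protein of dividing cells, was higher at 1 week (179 ± 89.3 against 105 ± 45.6 CPM, 0.76, adjusted p = 1.5e-09). Ripor2, a regulator of RhoA, was higher in both weeks (0.70 and 0.83). Nrgn, N4bp1, Gm2682, and 1500009L16Rik were higher at 1 week by 0.77 to 0.81, although Nrgn turned to -1.86 (adjusted p = 0.046) when cells with a UMI of Mki67 or Top2a were left out, and Rgs16 and Syt11 at 3 weeks by 0.73 and 0.71. Lower at 3 weeks were Jmy (-1.06), Hilpda (-0.78), a lipid droplet protein induced by hypoxia, Bcl2l11 (-0.65), which encodes the death-promoting protein BIM, Ugcg (-0.56), and Vps37b (-0.44). Lower at 1 week were Ier5l (-0.65), Ctla2a (-0.58), and Fth1 (-0.22), which encodes ferritin heavy chain.

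At 1 week 7 of 15 proliferation genes tested were higher in positive cells (median log2 fold change 0.32 over the list), among them Mki67 (0.38) and Top2a (0.32), and 53.9% of positive against 39.1% of negative cells held a UMI of one of these 2 genes. The calls depended on the comparison. In the depth-matched one they were lost, with Mki67 at 0.03 (adjusted p = 0.97), and the share in the matched negative cells was 46.9%. After thinning 5 genes were higher (Birc5, Hmgb2, Stmn1, Top2a, and Ube2c, list median 0.51), with TMM factors 4, and in DESeq2 3, and Mki67 was not called in these 3 settings (adjusted p = 0.064, 0.070, and 0.26). At 3 weeks 0 of the 15 were called. A UMI of Mki67 or Top2a was then held by 17.7% of positive, 12.9% of negative, and 12.9% of depth-matched negative cells. Of 13 naive and stem-like genes tested, 1 was higher and 1 lower at 3 weeks (Il7r and Bcl2). Of 20 transcription factors tested, 2 were higher at 1 week (Klf2 and Rora) and 3 at 3 weeks (Klf2, Tox, and Zeb2).

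Listed genes that were among the largest changes of their lists at 3 weeks but passed in neither week were mostly at low counts. Tcf7, a transcription factor of naive and stem-like T cells, was at 22.1 ± 11.7 against 11.2 ± 2.30 CPM at 3 weeks (1.04 ± 0.31, adjusted p = 0.064), and Cd160, an inhibitory receptor, at 124 ± 5.13 against 92.6 ± 7.31 CPM (0.42 ± 0.13, adjusted p = 0.087), without overlap. Zfp683, which encodes the residency factor Hobit, was at 1.22 ± 1.12 against 5.28 ± 2.45 CPM at 1 week and 9.29 ± 5.69 against 17.1 ± 3.22 CPM at 3 weeks, below the negative cells in 8 of 8 libraries (adjusted p = 0.34 and 0.58). The log2 values at 3 weeks were -1.01 for Ccr7, -1.0 for Dapl1, 0.89 for Bach2, -1.61 for Gzmf, -0.50 for Gzmm, 1.75 for Klra1, 0.85 for Klra5, -1.31 for Il10, -2.35 for Il12rb2, and 0.95 for Pclaf. They were -1.36 for Ifit1, -0.70 for Rsad2, and -0.51 for Rtp4 among interferon-stimulated genes, and 0.35 for Vav1, 0.25 for Pik3r5, and 0.18 for Pik3cg among genes of CX3CR1 signaling. Ccna2 had 0 UMIs in the positive cells at 3 weeks.

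The difference between positive and negative cells was itself compared between the weeks. The log2 change differed between 3 weeks and 1 week for 44 of 10824 genes (0.407%), 22 with a larger and 22 with a smaller value at 3 weeks, or 37 and 11 with TMM factors and 100 and 7 in DESeq2. It grew by 1.22 ± 0.29 for S1pr1 (adjusted p = 0.012), by 0.79 ± 0.15 for Il18r1 (0.00030), and by 1.03 ± 0.15 for Ly6c2 (7.3e-09), and for Gzmb the difference of the changes was -0.76 ± 0.08 (5.2e-16). For Ccl5 it was -0.80 ± 0.04 (3.5e-95) and for Ifngr1 -0.53 ± 0.10 (7.1e-05). In the depth-matched comparison the values were 0.48 for S1pr1 (adjusted p = 0.85) and 0.60 for Il18r1 (0.29), while Ly6c2 (0.82, 0.026), Gzmb (-0.54, 0.00038), Ifngr1 (-0.62, 0.00038), and Ccl5 (-0.87, 5.1e-37) still passed. Without cells that held a Mki67 or Top2a UMI, Ly6c2 and Ccl5 passed, and the differences of Gzmb (-0.49, adjusted p = 0.052), Ifngr1 (-0.36, 0.64), S1pr1 (1.27, 0.11), and Il18r1 (0.43, 0.77) did not. After thinning, Gzmb, Ly6c2, and Ccl5 passed, and those of Ifngr1 (-0.60, 0.13), Il18r1 (0.92, 0.19), and S1pr1 (0.98, 0.95) did not. The S1pr1 difference was also lost without library 1 or 3 of week 1 or library 2 of week 3, and that of Il18r1 without library 3 of week 1 (0.59, adjusted p = 0.14). Fcer1g (-0.22, adjusted p = 0.90) and Klf2 (0.17, adjusted p = 0.90) showed no difference between the weeks that passed.

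Positive cells changed broadly from 1 to 3 weeks, when 1513 of 4508 genes were higher (33.6%) and 884 lower (19.6%), or 53.2% in all. TMM factors moved the median of these log2 changes from 0.23 to 0.03 and gave 1126 higher and 1178 lower genes. Above that shift, Itga1 rose by 2.56 ± 0.18, Itgae by 2.46 ± 0.23, Bcl2 by 2.50 ± 0.18, Il7r by 1.98 ± 0.20, Cxcr6 by 1.78 ± 0.15, Tox by 1.14 ± 0.15, Pdcd1 by 1.07 ± 0.17, and Lag3 by 0.95 ± 0.18 (largest adjusted p of these 8.2e-05). Fcer1g rose by 1.63 ± 0.26. S1pr1 fell by 1.5 on the log2 scale, Klf2 by 1.22, Gzma by 2.25, Lgals1 by 1.83, and the proliferation genes Mki67 by 3.81 and Top2a by 2.95. Of the genes with the largest changes, 2900026A02Rik rose by 3.62, Fyco1 by 3.07, and AC149090.1 by 3.06, and Cenpf fell by 6.56 and Cks1b by 5.98. At 3 weeks the levels of Itga1 and Itgae in positive cells were still below those in the negative cells of the same libraries, in 5 of 5. Negative cells moved in the same direction for the genes given next, as pooled values without a test. From 1 to 3 weeks Itga1 went from 47.6 to 419 CPM, Itgae from 42.8 to 246, Cxcr6 from 211 to 668, and Tox from 171 to 331. Pdcd1 went from 276 to 507 CPM, Fcer1g from 131 to 512, and S1pr1 from 52.6 to 7.85. In direction, the changes of these genes were not particular to positive cells. Gzma was at 266 and 259 CPM in negative cells, so its fall was not shared by them. The size of a change differed between the groups where the difference between the weeks passed above. The weeks are of different libraries.

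Cells farther inside the rule showed some of the differences at a larger size, as pooled values without a test. At 3 weeks S1pr1 was at 7.85 CPM in cells with 0, 31.8 CPM with 1, and 64.6 CPM with 2 or more Cx3cr1 UMIs, although the last value rests on 12 UMIs in 64 cells. Fcer1g was at 512, 157, and 59.2 CPM, and Ly6c2 at 57.9, 121, and 205 CPM in the same order. Il18r1 did not continue, with 60.6, 157, and 129 CPM. At 1 week S1pr1 was at 52.6, 103, and 109 CPM and Zeb2 at 23.3, 37.6, and 31.6 CPM. Gzma at 1 week was at 266, 312, and 981 CPM, and at 3 weeks at 259, 103, and 10.8 CPM, the last from 2 UMIs in 64 cells. The macrophage gene C1qb was at 14.9, 7.95, and 28.1 CPM at 1 week and at 14.4, 13.1, and 26.9 CPM at 3 weeks, where the values of cells with 2 or more Cx3cr1 UMIs rest on 8 and 5 UMIs and have counting intervals that hold the values of cells with 0. Zeb2 at 3 weeks was at 33.0, 51.4, and 86.1 CPM, far from the 903 CPM of positive spleen cells.

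For 236 listed genes, detection (the percentage of cells holding at least 1 UMI after thinning to 1000) was compared over the 8 paired libraries by an exact sign-flip permutation test. Of these genes, 0 passed after adjustment (0%), 43 had an unadjusted p under 0.05, and the smallest p that the test allows, 0.0078, gave an adjusted p of 0.12. S1pr1 was detected in 10.5% ± 2.56 of positive and 6.69% ± 1.46 of negative cells at 1 week and in 2.49% ± 1.22 and 0.704% ± 0.0942 at 3 weeks, higher in 8 of 8 libraries. Fcer1g was detected in 3.87% ± 1.81 against 6.83% ± 1.31 and in 8.09% ± 2.30 against 20.2% ± 4.97 of cells, lower in 8 of 8 libraries. Itga4 and Itgb1 were higher in 8 of 8 libraries, at 54.5% ± 4.83 against 43.7% ± 4.21 and 51.3% ± 3.62 against 39.0% ± 2.62 of cells at 3 weeks.

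Markers of other cells were summed in both groups. The 9 T cell identity genes stood at 6832 to 8350 CPM in positive and 7175 to 8179 CPM in negative cells at 1 week, and at 8099 to 8966 against 8473 to 9508 CPM at 3 weeks. The sum was lower in positive cells in 2 of 3 libraries at 1 week and in 5 of 5 at 3 weeks. Of these genes Cd3g, a chain of the CD3 complex, was lower in both weeks, at 1350 ± 200 against 1618 ± 287 CPM and 1551 ± 143 against 1835 ± 89.1 CPM (-0.25 in each, adjusted p = 5.6e-07 and 6.3e-08), in 8 of 8 libraries, and the 1-week call was lost in the depth-matched comparison (-0.16, adjusted p = 0.075). With TMM factors Cd3d and Cd3e were also called lower in both weeks and Trac at 1 week. The 17 further myeloid genes were at 411 to 552 against 480 to 616 CPM at 1 week and 447 to 733 against 685 to 1164 CPM at 3 weeks, with Cd68 and Itgam at 0 in positive cells at 3 weeks. The 10 NK cell genes were at 58.7 to 119 against 120 to 219 CPM and 112 to 245 against 343 to 719 CPM, with the defining genes Ncr1 and Klrb1c at 0 in positive cells at 3 weeks. Both lists hold Fcer1g, and without it and 4 further genes that T cells also express, the 12 myeloid genes left were at 56.2 to 128 against 75.5 to 149 CPM at 3 weeks.

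Some transcripts of other cells were higher in positive cells. The 5 CD4 T cell genes summed to 274 to 493 CPM in positive and 261 to 332 CPM in negative cells at 1 week, higher in 3 of 3 libraries. Kidney parenchyma genes (15) summed to 19.8 to 128 against 17 to 24.5 CPM at 1 week and 19.7 to 48.3 against 15.8 to 21.0 CPM at 3 weeks, with 11 and 9 of the 15 at 0 in positive cells and Spp1 the main part. Clec10a, a lectin of dendritic cells and macrophages, was at 2.20, 24.4, and 0 CPM in positive and at most 0.654 CPM in negative cells at 1 week, and Cd74, the invariant chain of antigen-presenting cells, at 103 ± 36.7 against 59.0 ± 13.4 CPM. The 6 B cell genes summed to 216 to 227 against 194 to 223 CPM at 1 week, with Ms4a1 and Pax5 at 0 in positive cells. At 3 weeks they summed to 176 to 250 against 206 to 277 CPM, higher in 1 of 5 libraries. Of these genes Cd79a was at 11, 0, and 10.3 CPM against 1.84, 0.374, and 0.642 CPM at 1 week (3.01 ± 0.64, adjusted p = 0.00045), from 12 UMIs in positive cells, and at 7.6 ± 5.04 against 6.95 ± 2.51 CPM at 3 weeks. Its 1-week call was lost without library 3 (2.23, adjusted p = 0.41), after thinning, and without the cells that held a Mki67 or Top2a UMI (0.78, adjusted p = 0.97). The Clec10a and Spp1 calls at 1 week were lost in the robust fit (adjusted p = 0.17 and 0.21), and Spp1 changed sign without the cells that held a Mki67 or Top2a UMI (-1.44). The part of such transcripts of other cells in the other results was not tested.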

How the data were processed

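Droplet scRNA-seq data of sorted CD45+ cells were used as deposited: the authors aligned reads with Cell Ranger (version not given in the sources used here; the submitters' processing notes name mm10), filtered cells by UMIs, mitochondrial content, and genes, called CD8+ T cells from Seurat clusters, and deposited raw UMI counts without normalization. Groups come from the sample labels. The members and gene lists were chosen with earlier results of these data known. No doublet caller was run.

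UMIs were summed per library over positive and negative cells, without the 6 genes of the rule. edgeR 4.0.16 (R 4.3.3) was applied with filterByExpr, plain library totals, the library as a block, the quasi-likelihood test, and Benjamini-Hochberg adjustment at 0.05. Positive and negative cells of a library are paired by construction, since the labels carry no replicate numbers. Positive cells of 3 weeks and 1 week were compared without a block. The paired fit had an infinite prior df, that is, one spread trend for all genes, so a robust fit was added after seeing the data, as were a fit without shared barcodes and the comparison of graft and spleen (robust edgeR, 9691 genes). Shares were tested by exact permutation (scipy 1.17.1), two-sided. Permutation p-values rest on the values of the libraries themselves. P-values and SE of the paired fit rest on the shared trend and can be too small for a gene that varies unusually. Intervals of counts cover counting error only.

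Named genes are Klrg1, Zeb2, listed genes, and, per week, up to 10 genes with the largest and 10 with the smallest log2 fold change among those with at least 50 CPM that passed in the main and depth-matched fits, or 5 each for the other comparisons. Of the listed genes, those with the largest change at 3 weeks lead; further listed genes, and the marker transcripts of other cells, were chosen after their values were seen. On simulated counts with 200 of 10532 genes changed, 76% (2-fold) and 96% (4-fold) were recovered at 1 week, and 79% and 95% at 3 weeks, but these were simulated from the shared trend. Alternatives were TMM factors, DESeq2 1.42.0, no filter, no block, depth-matched cells, cells with myeloid UMIs kept, at least 2 Cx3cr1 UMIs, stricter cells, no Mki67 or Top2a UMI, thinning, and leaving out each library. Matrices of 24 weeks and the CD45+ data of accepted mice were not used here for tests. Listed genes that the text does not name enter the counts of their lists, and the result of 1 listed gene that passed at 1 week is not reported here.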

Additional observations from a re-analysis of the deposited data

Results flagged for a closer look

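The difference between positive and negative cells changed from 1 to 3 weeks for 19 named genes by the edgeR interaction test, as the log2 change at 3 weeks minus that at 1 week. Over all genes tested it changed for 44 of 10824 (0.407%), and some of the named genes were named because they passed this test. It was higher at 3 weeks for Ifitm1 (2.00), S1pr1 (1.22), Ly6c2 (1.03), Gm156 (0.98), Il18r1 (0.79), Il7r (0.69), Klrk1 (0.65), Ifng (0.63), Ctla2a (0.44), Itgb1 (0.27), and Lgals1 (0.27). It was lower for Cd79a (-2.89), Gzma (-2.12), Cd74 (-0.99), Tnfrsf9 (-0.93), Ccl5 (-0.80), Serpinb6b (-0.80), Gzmb (-0.76), and Ifngr1 (-0.53). In the robust fit, the calls of Ifitm1 (adjusted p = 0.43), Gzma (0.42), Ctla2a (0.53), Gm156 (0.072), Itgb1 (0.055), and Tnfrsf9 (0.054) were lost. In the depth-matched comparison, 3 genes were higher and 15 lower of 7332 tested. The calls of S1pr1, Il18r1, Il7r, Klrk1, Ifng, and Itgb1 were lost there.

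In the positive cells at 3 weeks, 1 library lay far from the others for 4 of 60 genes looked at, where chance gives about 1 in 20. Bcl2 was at 578 CPM in library 2 and at 706 to 756 CPM in the others, Cd7 was at 197 CPM in library 3 and at 168 to 176 CPM in the others, Fth1 at 2201 CPM in library 5 and 1742 to 1869 CPM in the others, and Itga1 at 247 CPM in library 2 and 290 to 303 CPM in the others. Each of these values was below that of the negative cells of its own library, as in the other libraries.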

How the results depend on the processing

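The number of genes called between positive and negative cells depended on the processing. It changed by more than 1.5 times in the cases given here, except for leaving out 1 library in the 3-week comparison. At 1 week, 175 genes became 316 with TMM factors, 85 with depth-matched cells, 36 with at least 2 Cx3cr1 UMIs, 111 with stricter cells, 74 without cells that held a Mki67 or Top2a UMI, 43 after thinning, and 90 to 184 when 1 library was left out (97, 90, and 112 without library 1, 2, or 3 of week 1). At 3 weeks, 109 became 184 with TMM factors, 71 with depth-matched cells, 13 with at least 2 Cx3cr1 UMIs, 34 after thinning, and 76 to 112 when 1 library was left out. For the difference between the weeks, 44 became 107 in DESeq2, 18 with depth-matched cells, 5 with at least 2 Cx3cr1 UMIs, 23 with stricter cells, 18 without Mki67 or Top2a, 9 after thinning, and 22 to 45 when 1 library was left out (22 and 27 without library 1 or 3 of week 1, 28 without library 1 or 5 of week 3). Without the replicate block, that is, without pairing the positive and negative cells of a library, the calls were 6, 17, and 1. For positive cells of 3 weeks against 1 week, 2397 became 1283 without Mki67 or Top2a and 806 after thinning. Fewer cells or UMIs entered the thinned, depth-matched, 2-UMI, and stricter settings, those without Mki67 or Top2a, and those without 1 library. Whether this changed the numbers of calls was not tested, nor was the cause in the other settings. The share at 3 weeks minus 1 week ran from -1.24 to -0.0754 percentage points over the settings, with p from 0.0357 to 0.571 (exact permutation), and passed only without thinning with cells with a myeloid UMI kept (-1.24). The share of graft against spleen at 3 weeks changed direction for at least 2 Cx3cr1 UMIs without thinning (-0.316, exact permutation p = 0.19) and passed with all matrix cells as denominator without thinning (1.38, p = 0.00794, exact permutation). These combined settings were added after seeing the data.

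Some called genes changed sign. Without Mki67 or Top2a, Birc5 was at -0.50, Ccnb2 at -0.25, Ube2c at -0.31, Spp1 at -1.44, and Nrgn at -1.86 at 1 week, and Ccl5 at -0.0906 from 1 to 3 weeks. With at least 2 Cx3cr1 UMIs, Cd74 was at -0.25 and Xcl1 at 0.0925 at 1 week, Clec10a at -6.37, Ifi27l2a at -0.0412, Il7r at -0.18, and Xcl1 at 0.11 at 3 weeks, and Il7r at -0.34 for the difference. When 1 library was left out, Xcl1 at 1 week ran from -0.61 to 0.0116. With depth-matched cells Top2a was at -0.0043 at 1 week. After thinning Cd79a was at -4.26 at 1 week and 4.45 for the difference. The depth limits what can be seen: a gene at 10 CPM in positive cells rests on about 17 UMIs at 1 week, as for Klrg1.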

Other observations

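The 24-week matrices were not used for tests, and no direction between tissues is drawn from them. The study describes these samples as they are labelled, and whether the labels hold was not tested here. It also counted cells that secrete IFN-γ at 24 weeks by ELISPOT. There CD8+ T cells from the graft made less IFN-γ against donor antigen than those from the recipient spleen. Negative CD8 cells labelled spleen at 24 weeks had 598 CPM of Gzmb and 17.5 CPM of S1pr1, against 2.54 and 209 CPM in those labelled kidney. The 126 positive cells labelled spleen at 24 weeks had 65.5 CPM of Zeb2 and the 8 labelled kidney had 498 CPM. At 3 weeks the negative cells of the graft had 879 CPM of Gzmb and 7.85 CPM of S1pr1, and those of the spleen 3.79 and 284 CPM.

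Rejecting grafts at 1 week (78 positive cells in 2 libraries, no test) had 141 CPM of Zeb2 in positive and 86.4 CPM in negative cells, 0 UMIs of Klrg1 and S1pr5 in positive cells, and 12.8 against 10.3 CPM of S1pr1. Gzmb was at 1336 against 1500 CPM and Fcer1g at 59.7 against 103 CPM. Ifitm1 was at 205 against 122 CPM there, at 1064 against 49.1 CPM in the recipient spleen at 1 week, and at 0 UMIs in the 38 positive cells of that spleen at 3 weeks, where the negative cells were at 0.253 CPM (3 UMIs in 2659 cells).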
